A study of Mus musculus with 16 samples.

Results

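The 10 lung epithelial transcripts, namely Sftpa1, Sftpb, Sftpc, Sftpd, Scgb1a1, Scgb3a1, Epcam, Ager, Hopx and Cldn18, were followed across RNA-seq libraries of mouse pulmonary endothelial cells (ECs). They are 10 of the 54532 genes in the tables, and they were chosen by symbol, by an earlier analysis of these libraries that had compared the same groups. Their differences between the groups are therefore given as a description. Where a fit across all genes also made a call on a member, the call is part of that description and supports nothing. The ECs had been taken from digested lungs with magnetic beads, first by removing cells that carry CD45 and then by holding cells that carry CD31, so an epithelial cell should not be in the selected fraction. In the first experiment, male WT C57/BL6J mice of 8 weeks received saline (n = 4) or LPS at 10 mg/kg (n = 6) into the trachea. In the second, adult VE-cadherin-CreERT2 Fgfr1 loxP/loxP mice, called Fgfr1 iΔEC/iΔEC (n = 3), were set beside Fgfr1 loxP/loxP littermates (n = 3), and both groups received tamoxifen and LPS at 2 mg/kg. All lungs were taken after 24 h. The Cre driver acts in ECs and should leave Fgfr1 of epithelial cells as it was, the age in weeks and the sex of the Fgfr1 mice are not given in the sources used here, and nothing says whether a library came from 1 mouse or several. Levels are FPKM, read numbers set per length of gene and per size of library, and the libraries held between 13478726 and 19043015 reads on genes.

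The alveolus is lined by type 1 cells, flat cells across which gas passes, and by type 2 cells, which make and secrete surfactant. Sftpb and Sftpc encode the small hydrophobic surfactant proteins that spread the lipid film, while Sftpa1 and Sftpd encode collectins, lectins that bind microbes. Sftpc is the usual marker of the type 2 cell. Scgb1a1 and Scgb3a1 encode secretoglobins of airway club and other secretory cells, Ager and Hopx mark the type 1 cell, Cldn18 encodes a tight junction protein of alveolar epithelium, and Epcam encodes an adhesion protein found on most epithelial cells. In a bulk library of this kind, fewer cells of a type and less RNA per cell cannot be told apart, and it is not known how much of each transcript came from whole cells.

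The genes lie apart in the genome (GRCm38), apart from the collectin genes, which share a stretch of chromosome 14. Sftpa1 lies at chr14:41131782-41136452 on the plus strand and Sftpd at chr14:41172214-41185149 on the minus strand, with Sftpc farther along at chr14:70520949-70524081 (minus). Sftpb lies at chr6:72304610-72314371 (plus), Scgb1a1 at chr19:9083636-9087958 (minus) and Scgb3a1 at chr11:49663610-49665118 (plus). Ager lies at chr17:34597862-34600936 (plus), Epcam at chr17:87635979-87651106 (plus), Hopx at chr5:77086988-77115121 (minus) and Cldn18 at chr9:99689461-99717267 (minus). All 10 code for proteins. Hopx overlaps the antisense gene Hopxos, and Cldn18 overlaps Gm16004, also on the opposite strand. Whether reads were counted by strand is not given in the sources used here, so reads of these overlaps cannot be told apart.

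The promoters of Sftpb and Sftpa1 are shown because these 2 transcripts followed each other most closely of all pairs between libraries (below). Both sequences are the 250 bases before the start site, from RefSeq on GRCm38.p6, at chr6:72304360-72304609 (plus) and chr14:41131538-41131787 (plus). Capitals mark the letters CTCAAG, the core of the sequence that NKX2-1, a transcription factor of lung epithelium, is known to bind.
Sftpb: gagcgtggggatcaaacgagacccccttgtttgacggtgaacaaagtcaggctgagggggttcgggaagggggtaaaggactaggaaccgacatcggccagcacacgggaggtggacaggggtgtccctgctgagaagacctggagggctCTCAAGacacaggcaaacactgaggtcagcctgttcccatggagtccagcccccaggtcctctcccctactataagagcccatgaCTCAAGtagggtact
Sftpa1: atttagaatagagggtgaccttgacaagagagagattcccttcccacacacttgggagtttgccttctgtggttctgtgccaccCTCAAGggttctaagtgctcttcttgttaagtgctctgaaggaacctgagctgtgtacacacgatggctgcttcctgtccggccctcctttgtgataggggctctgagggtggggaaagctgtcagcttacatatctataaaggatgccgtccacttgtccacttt
The Sftpb promoter held the letters 100 and 15 bases before the start site, and the Sftpa1 promoter 166 bases before it. CTCAAG, or CTTGAG on the other strand, was found in 5 of the 9 promoters (250 bases before to 50 after the start site) of the 7 members with an entry, those of Sftpa1, Sftpb, Scgb3a1 and Hopx. It was found in 15.9% of all 32851 promoters of that length, so it is a common run of letters, and a match describes the sequence and not a bound site. Sftpc, Sftpd and Scgb1a1 had no entry in the promoter set used here.

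The fraction carried the markers of its label and these epithelial transcripts together. In saline libraries, Cdh5, which encodes VE-cadherin, stood at 710 ± 56.0 FPKM (SD, n = 4) and Pecam1, which encodes CD31, at 400 ± 81.5 FPKM. Sftpc stood above both, at 1316 ± 550 FPKM (n = 4), the 8th highest mean of the 32653 genes with a read in these libraries. Its lowest saline library (799 FPKM) was above the highest saline library of any other member (259 FPKM, Scgb1a1). A second tier held Scgb1a1 (141 ± 86.3 FPKM), Sftpb (141 ± 52.0), Sftpa1 (124 ± 59.5), Hopx (103 ± 31.4) and Ager (87.6 ± 50.5), whose order did not exceed the spread between libraries. Sftpd (30.7 ± 17.5 FPKM) and Scgb3a1 (21.8 ± 8.68) overlapped each other, and Cldn18 (10.8 ± 5.66) overlapped Scgb3a1. Epcam was the lowest at 2.15 ± 1.30 FPKM and rested on 38 to 107 reads per saline library, so its values carry the largest counting error of the 10. Sftpc alone made up between 65.3% and 68.4% of the summed FPKM of the 10 transcripts in the 4 saline libraries.

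**Figure D1:**
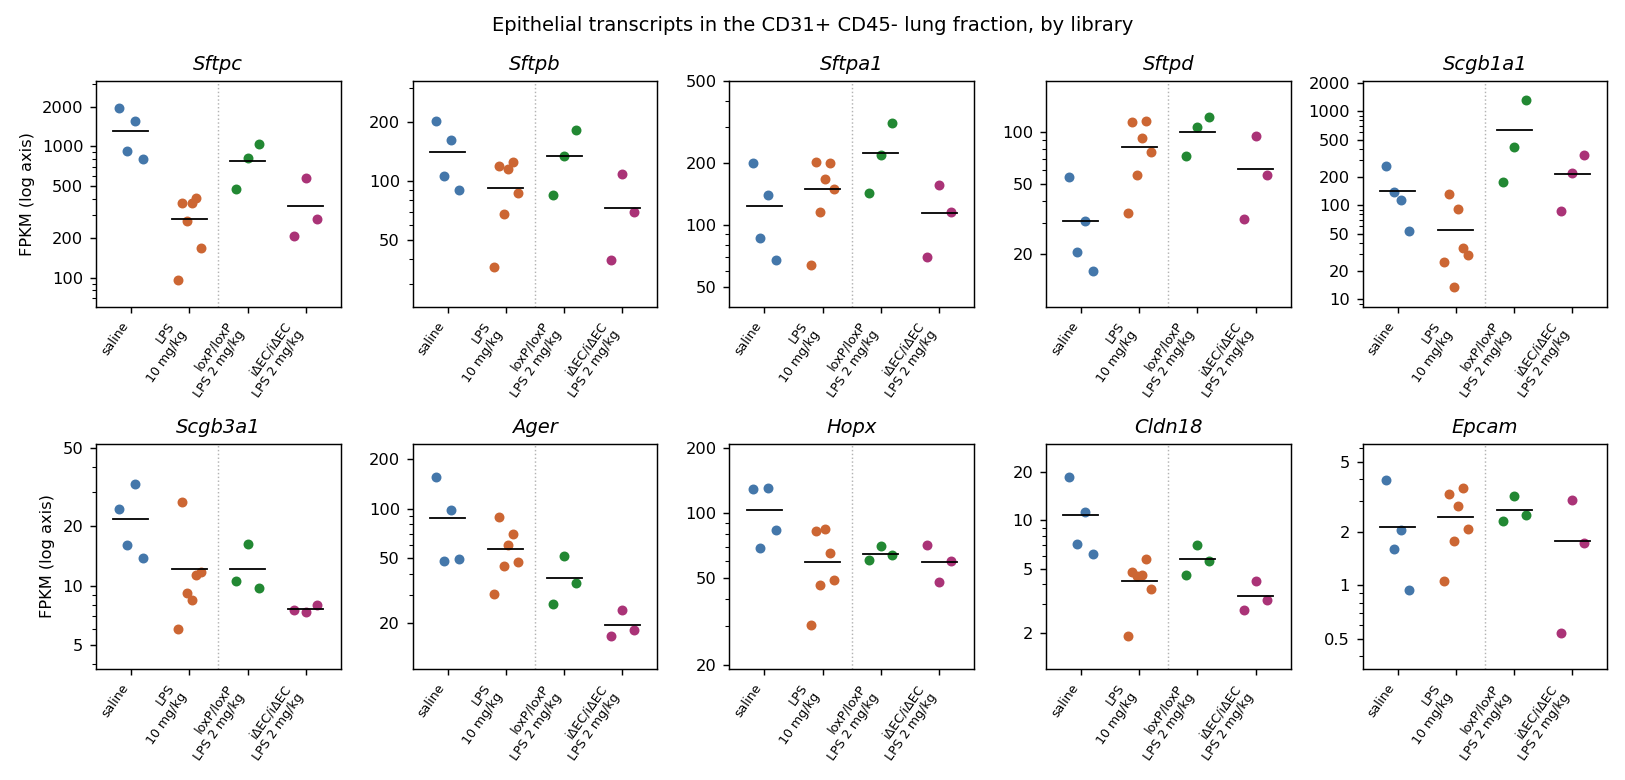
FPKM (log axis) of each of the 10 transcripts in every library, 1 point per library and a bar at the group mean, with the experiments parted by a dotted line because their tables were normalized separately. Sftpc and Cldn18 show no overlap between saline and LPS, Sftpd is higher in most LPS libraries, and all 10 means are lower in Fgfr1 iΔEC/iΔEC than in Fgfr1 loxP/loxP, with Hopx nearly level.

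LPS against saline was compared within the first experiment. Sftpc was 4.70-fold lower in LPS than in saline by group means, while Sftpd was 2.65-fold higher, so that transcripts of the same cell type stood on opposite sides of the saline level. Scgb1a1 and Cldn18 were also lower, and Sftpb, Ager, Hopx, Scgb3a1, Sftpa1 and Epcam were nearer to saline. By limma on log2(FPKM + 1), with a call at an adjusted p of 0.05 or less and a log2 fold change of at least 1, 1 member (Sftpd) was called higher and 3 (Sftpc, Scgb1a1, Cldn18) lower. These calls moved with the scaling, to 0 higher and 7 lower under quantile normalization, where Sftpd stood at 0.997, just under the limit on fold change, and to 2 higher (Sftpa1 and Sftpd) and 1 lower (Sftpc) with the libraries scaled on endothelial genes. Of the 14893 genes tested, 11.9% were called higher and 6.79% lower, and since the members came from this contrast, nothing is read from their count.

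The hydrophobic surfactant proteins came first. Sftpc FPKM was 1970.5, 930.5, 1564 and 799 in the 4 saline libraries, and between 96.1 and 407 with a median of 318 across the 6 LPS libraries. Every LPS library was under every saline library. The log2 difference was -2.30 (SE 0.43), and it kept its sign under each scaling tried, at -1.57 with the libraries scaled on endothelial genes. Sftpb FPKM was 203, 107, 163 and 89.9 in saline, and between 36.7 and 125 with a median of 102 in LPS. These groups overlapped, and the log2 difference of -0.64 (SE 0.35) turned to 0.07 on the endothelial scaling.

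The collectins went the other way or stayed. Sftpd FPKM was 55.2, 20.5, 31.0 and 16.1 in saline, and between 34.4 and 115 with a median of 84.4 in LPS. The groups overlapped through saline 1, the highest saline library, and LPS 1, the lowest LPS library, and the log2 difference was 1.42 (SE 0.39). Sftpa1 FPKM was 200, 86.9, 140 and 67.7 in saline, and between 64.1 and 203 with a median of 158 in LPS. The ranges nearly coincided, and the log2 difference of 0.30 (SE 0.37) turned to -0.31 under quantile normalization.

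The secretoglobins were lower with wide spread. Scgb1a1 FPKM was 259, 137, 115 and 53.5 in saline, and between 13.4 and 133 with a median of 32.2 in LPS. LPS 2 (133) and LPS 4 (91.4) lay inside the saline range and the other 4 LPS libraries under it, for a log2 difference of -1.57 (SE 0.61). Scgb3a1 FPKM was 24.4, 16.2, 33.0 and 13.8 in saline, and between 6.00 and 26.5 with a median of 10.2 in LPS. LPS 2 stood alone in the saline range, the other 5 LPS libraries were below all saline libraries, and the log2 difference was -0.86 (SE 0.35).

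Of the type 1 and junction genes, Cldn18 showed the clearest gap. Cldn18 FPKM was 18.6, 7.13, 11.3 and 6.20 in saline, and between 1.90 and 5.78 with a median of 4.54 in LPS. Every LPS library was lower than every saline library, for a log2 difference of -1.11 (SE 0.30). Hopx, which encodes a homeodomain cofactor, had 129, 69.1, 130 and 83.1 FPKM in saline, and between 30.4 and 84.2 with a median of 57.0 in LPS (log2 difference -0.81, SE 0.30). Ager, which encodes the receptor RAGE, had 155, 48.2, 98.3 and 49.0 FPKM in saline, and between 30.3 and 89.0 with a median of 53.6 in LPS (log2 difference -0.52, SE 0.37, or 0.19 on the endothelial scaling). Both overlapped between the groups. Epcam FPKM was 3.96, 1.62, 2.06 and 0.946 in saline, and between 1.07 and 3.55 with a median of 2.45 in LPS, a log2 difference of 0.16 (SE 0.28) within the spread of the libraries.

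Sftpc and Cldn18 were fully separated between the groups, both lower in LPS, beside 16.7% of all genes tested that were separated in that direction and 22.7% in the other. With 1 library left out, the log2 difference of Cldn18 was -0.83 without saline 1 and -0.95 without LPS 1, under the limit on fold change, and that of Scgb1a1 was between -1.96 and -1.21, past the limits in 3 of 10 fits. Saline 1 was the highest saline library for 8 of the members, and LPS 1 the lowest LPS library for 9.

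Ratios between transcripts of 1 library do not depend on how the library was scaled. Sftpc to Sftpd was 35.7, 45.4, 50.4 and 49.7 in the 4 saline libraries and 2.80, 3.29, 4.73, 3.99, 3.55 and 2.20 in the 6 LPS libraries. No LPS library came near the saline range. Sftpc to Sftpb was between 8.69 and 9.70 in saline and between 1.93 and 3.94 in LPS, and Sftpa1 to Sftpb between 0.753 and 0.986 in saline and between 1.44 and 1.75 in LPS. The spread within a group was small beside these gaps, although the FPKM of each gene varied several-fold among libraries of 1 group. The same ratios in the second experiment, given side by side since dose, genotype and tamoxifen differ, were 6.48 to 8.59 in Fgfr1 loxP/loxP and 4.99 to 6.51 in Fgfr1 iΔEC/iΔEC for Sftpc to Sftpd. Sftpc to Sftpb was 5.51 to 6.12 in Fgfr1 loxP/loxP and 4.03 to 5.26 in Fgfr1 iΔEC/iΔEC, between the ranges of LPS at 10 mg/kg and saline. Sftpa1 to Sftpb was 1.62 to 1.71 and 1.44 to 1.77 there, and so inside or near the range of LPS at 10 mg/kg. Sftpc made up 27.0% to 42.7% of the summed members in LPS, 33.8% to 44.7% in Fgfr1 loxP/loxP and 29.4% to 46.3% in Fgfr1 iΔEC/iΔEC.

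**Figure D2:**
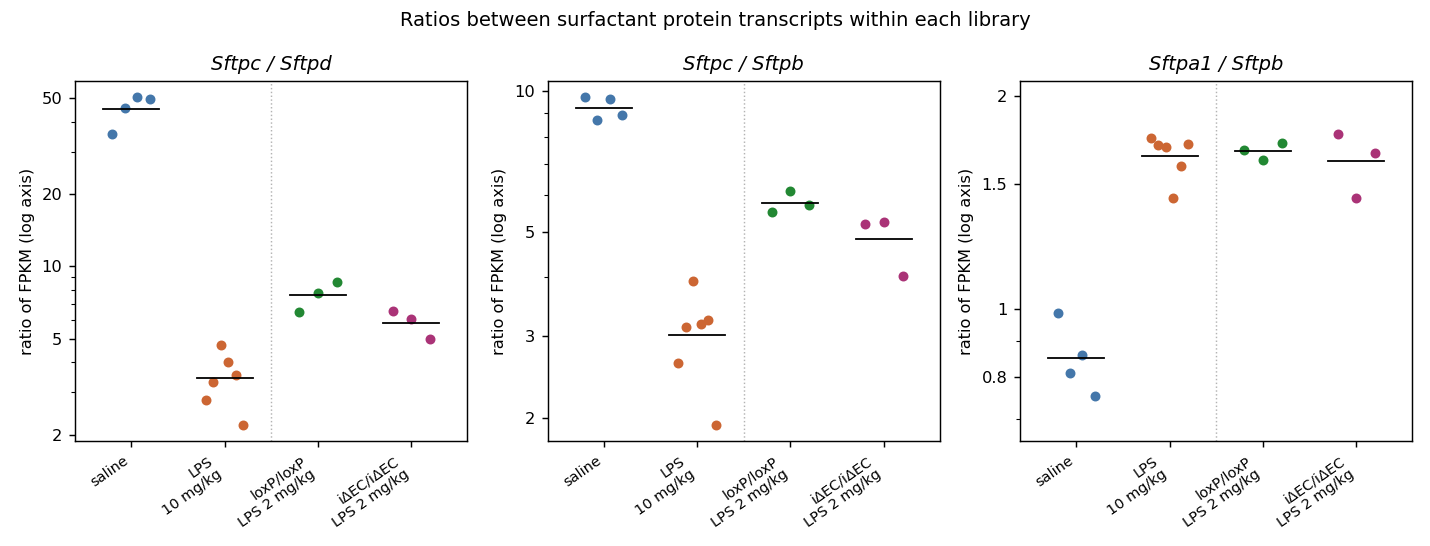
Ratio of FPKM (log axis) between 2 surfactant protein transcripts within each library, 1 point per library and a bar at the group mean. Saline libraries sit at 35.7 to 50.4 for Sftpc to Sftpd against 2.20 to 4.73 in LPS, and at 0.753 to 0.986 for Sftpa1 to Sftpb against 1.44 to 1.75 in LPS.

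Other epithelial genes were read from lists for alveolar type 2, alveolar type 1, club and goblet, ciliated, basal and general epithelial genes. Of 86 genes outside the 10 members, 56 passed the filter (a mean of at least 0.5 FPKM) and 30 were too low to test. In LPS against saline 10 of the 56 fell and 4 rose by the limma call, or 17.9% and 7.14%, beside 6.79% and 11.9% of all genes, and their median log2 difference was -0.45 beside 0.01 for all genes. Groups were separated with LPS lower in 13 of the 56 (23.2%) and with LPS higher in 4 (7.14%), beside 16.7% and 22.7% of all genes. These lists and the members were made with earlier results of these libraries known, and genes of 1 cell type move together between libraries, so the counts describe the lists and are no independent evidence.

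The type 2 list (15 of 15 tested) split in 3 ways. Hc, which encodes complement C5, fell from 7.02 ± 2.69 FPKM in saline (SD, n = 4) to 0.898 ± 0.190 in LPS (n = 6), with a log2 difference of -2.03 (SE 0.18, limma adjusted p = 9.52e-06). Lgi3, a secreted protein of type 2 cells, fell from 5.13 ± 1.22 to 1.44 ± 0.465 FPKM (-1.33, adjusted p = 0.000156), and S100g, a calcium-binding protein, fell by 1.06 on the log2 scale. A further 3 rose, namely Fabp5, a fatty acid binding protein, from 3.93 ± 0.596 to 67.5 ± 20.5 FPKM (log2 difference 3.73, SE 0.25, adjusted p = 1.35e-06), Chil1, a chitinase-like protein, from 21.5 ± 8.08 to 162 ± 45.2 FPKM (2.89, adjusted p = 8.47e-06), and Napsa, a protease that processes pro-Sftpb and pro-Sftpc, from 17.0 ± 7.97 to 102 ± 28.0 FPKM (2.55, adjusted p = 4.14e-05). The remaining 9 were not called. Among them were Slc34a2, the phosphate transporter of the type 2 apical membrane (-0.22), Lamp3, a lamellar body protein (0.24), and Abca3, which loads surfactant lipid into lamellar bodies (-0.44). The median of the list was -0.44.

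Macrophages and neutrophils also make Fabp5 or Chil1, and their markers rose in the same libraries. Of 8 macrophage genes 7 rose, with a median log2 difference of 4.03, and the sum of the list was 115, 80.5, 134 and 71.8 FPKM in saline and between 656 and 1480 with a median of 1097 in LPS. Chil3 was its most abundant gene, C1qb and C1qa had the largest log2 differences (5.86 and 5.11), and no gene of the list was at 0 in every library. Of 8 neutrophil genes 7 rose (median 2.49), led by S100a8 (3.91) and S100a9 (3.73), the most abundant, and the list summed to 1380, 69.5, 307 and 74.1 FPKM in saline and between 1293 and 6638 in LPS. Saline 1, the highest saline library for 8 of the members, thus stood apart from the other saline libraries in neutrophil transcripts and lay within the LPS range. All 6 leukocyte genes rose (median 2.83), although CD45 carriers had been removed, with Coro1a the most abundant. The part of these cells in the rise of Fabp5, Chil1 and Napsa was not tested.

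The type 1 list (13 of 13 tested) held 3 genes that fell and none that rose. Akap5, a kinase anchoring protein, fell from 5.49 ± 1.97 to 1.63 ± 0.489 FPKM (log2 difference -1.28, SE 0.21, adjusted p = 0.000525), Col4a3, a collagen chain of the alveolar basement membrane, by 1.15 and Rtkn2 by 1.05 on the log2 scale. In all 12 of 13 differences were negative and the median was -0.82, with Clic5, the most abundant, at -0.54 and Gprc5a at -0.82, neither called. The exception was Pdpn, a podoplanin gene used as a type 1 marker, at 0.78 (SE 0.27, adjusted p = 0.0331), under the limit on fold change. Of the club and goblet list 5 of 15 were measurable. Cbr2, a carbonyl reductase of club cells, fell from 95.2 ± 37.3 to 35.9 ± 10.5 FPKM (-1.35, adjusted p = 0.00249), Cyp2f2, the club cell cytochrome, by 1.24 and Scgb3a2 by 1.03. Aldh1a1 (-0.99) missed the limit on fold change. The 10 other genes of that list, among them the mucins Muc5ac and Muc5b, were under 0.5 FPKM on average.

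Ciliated genes gave 5 of 15 tested and 1 call, Sec14l3, which fell from 27.6 ± 14.8 to 10.1 ± 2.27 FPKM (log2 difference -1.25, adjusted p = 0.00467), while Tppp3, the most abundant, stood at -0.69 and was not called. In saline Tppp3 averaged 104 FPKM of a summed list of 136 FPKM, and apart from Sec14l3 no other ciliated gene averaged more than 1.04 FPKM. The summed ciliated list thus rests mainly on Tppp3 and Sec14l3. Of 7 basal genes 1 was tested (Dapl1, -0.34, not called). The general epithelial list (17 of 21 tested) had a median of -0.10 and no gene that fell. Cdh1, which encodes E-cadherin, stood at -0.09, Krt8 at -0.10 and Cldn3 at 0.15, none called, and Spint1, an inhibitor of membrane proteases, rose from 1.37 ± 1.01 to 7.27 ± 2.55 FPKM (1.83, SE 0.28, adjusted p = 0.000333). Among 4 tested genes of an injury-state list (Sfn, Areg, Krt8, Krt19) none was called, and Sfn, the most abundant, stood at -0.42. Of the 14 calls outside the members 8 held in each of 10 fits without 1 library, namely Fabp5, Chil1, Napsa, Spint1, Hc, Lgi3, Akap5 and Cbr2. Without saline 1 the other 6, S100g (-0.83), Rtkn2 (-0.90), Col4a3 (-0.99), Scgb3a2 (-0.89), Cyp2f2 (-0.92) and Sec14l3 (-0.96), were lost to the limit on fold change.

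The endothelial list fell in part, which bears on how the epithelial levels are scaled. Of 10 genes 4 fell, led by Kdr (log2 difference -1.63) and Tek (-1.20), and the median was -0.69, with a summed level of 6506, 3966, 4932 and 4071 FPKM in saline and between 1657 and 4010 in LPS. Cldn5 was the most abundant gene and none was at 0. Scaled on the endothelial genes, the median of all genes moved to 0.56, the mean of the 10 members went from -0.59 to 0.08, Sftpc remained 1.57 lower and Sftpd was 2.12 higher on the log2 scale, and 1 of the 56 other epithelial genes (Hc) was called lower. Scaled on the general epithelial list, an alternative added after seeing the data, Sftpc stood at -2.18, Cldn18 at -1.01 and Sftpd at 1.53.

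**Figure D3:**
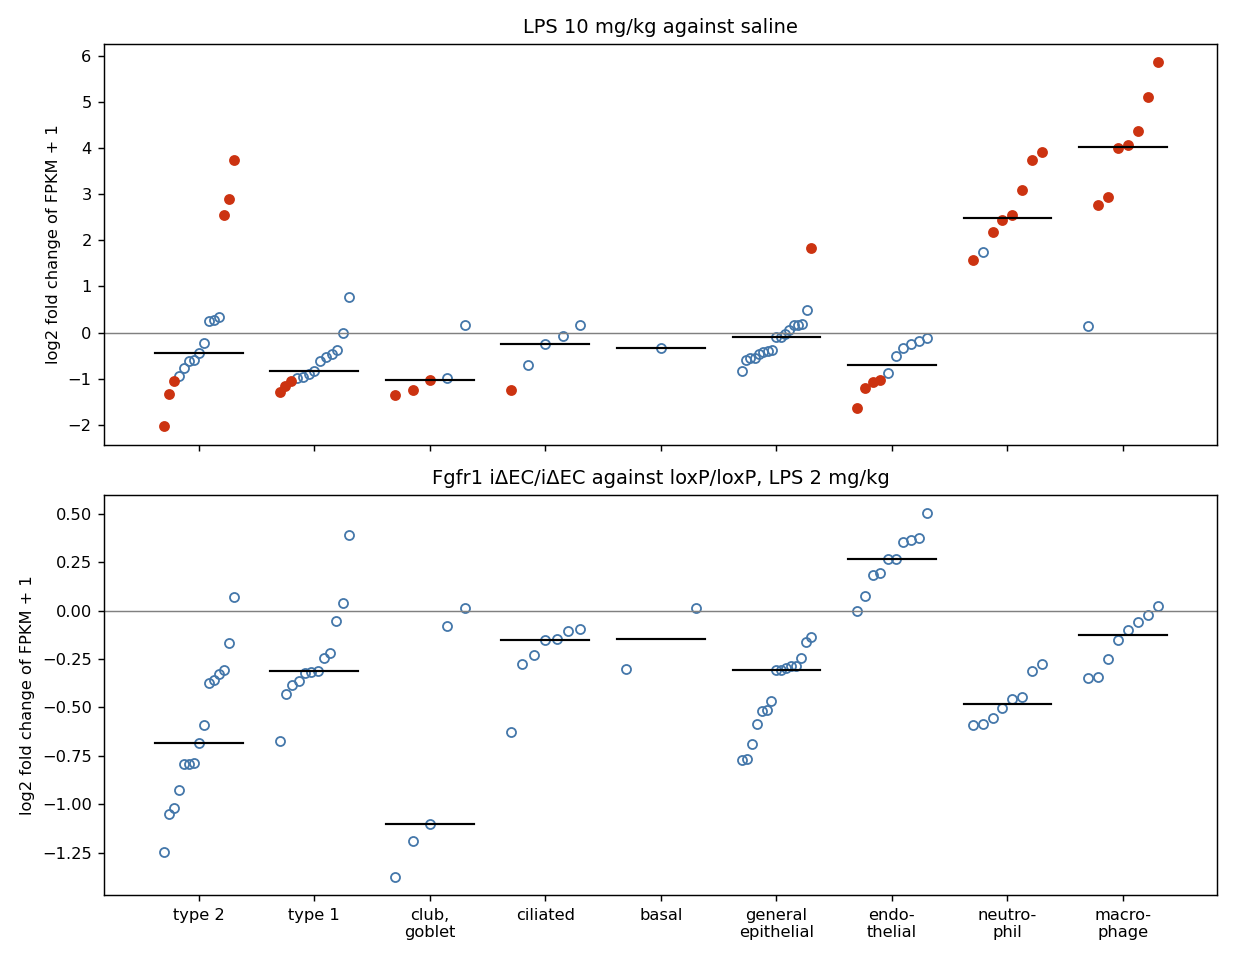
Log2 fold change of FPKM + 1 for each tested gene of 9 lists, LPS against saline above and Fgfr1 iΔEC/iΔEC against Fgfr1 loxP/loxP below, with filled points for genes called, open points for genes not called and a bar at the list's median. In the upper panel 10 epithelial genes fell and 4 rose, and in the lower panel no gene was called although 51 of the 56 epithelial points lie under 0.

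Variation between libraries of 1 group was shared by most members in the first experiment and by fewer in the second. Pearson r of log2(FPKM + 1), with the group means removed, had a median of 0.76 over the 45 pairs of members in 16 libraries, from 0.42 (Scgb1a1 and Scgb3a1) to 0.98 (Sftpa1 and Sftpb). The medians were 0.88 in the 10 libraries of the first experiment and 0.65 in the 6 of the second. The 4 surfactant proteins were at 0.91 or more with one another, Ager and Cldn18 at 0.93, and Hopx was the least tied of the alveolar genes, with a median of 0.63 to the other 9. In the second experiment alone Hopx ran against the surfactant proteins (r from -0.74 to -0.55) and Scgb3a1 was near 0 with them (-0.09 to 0.02), each over 6 libraries. Libraries share their isolation and scaling, so r is given without a p. Outside the members, the genes most like Sftpc, among 7358 with at least 5 FPKM on average in both tables, were Wfdc2 (r = 0.93), Muc1 (0.90), Aqp5 (0.86), Cldn3 (0.86) and Cxcl15 (0.85). Those most like Ager were Aqp5 (0.97), Krt8 (0.93), Krt19 (0.92), Clic3 (0.92) and Prdx6 (0.90), and those most like Scgb1a1 were Gm5483 (0.84), Wfdc21 (0.82), Ptges3 (0.81), Chil1 (0.80) and Lyz1 (0.80). Summed members followed the summed type 2 list (r = 0.87), the club and goblet list (0.84) and the general epithelial list (0.84), less so the ciliated list (0.68) and the type 1 list (0.54), and ran against the low basal list (-0.50). Outside the epithelium, r was 0.70 with the neutrophil list, 0.63 with the mural list, 0.55 with the macrophage list, 0.50 with the endothelial list and -0.05 with the lymphocyte list.

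**Figure D4:**
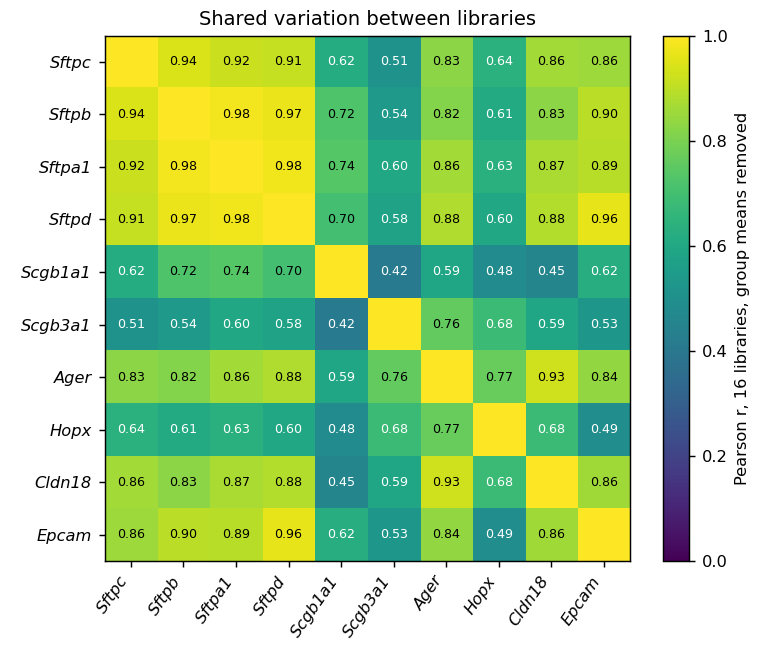
Pearson r between each pair of the 10 transcripts over 16 libraries after the mean of each group was removed, with the value in each cell. The surfactant proteins form a block at 0.91 to 0.98, and the lowest value, 0.42, is between Scgb1a1 and Scgb3a1.

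Fgfr1 iΔEC/iΔEC was compared with Fgfr1 loxP/loxP within the second experiment, both under LPS at 2 mg/kg. Fgfr1 itself was 2.90, 2.91 and 2.59 FPKM in the 3 Fgfr1 loxP/loxP libraries and 0.683, 1.41 and 1.15 FPKM in the 3 Fgfr1 iΔEC/iΔEC libraries, all lower, as the labels say. Its log2 difference was -0.88 (SE 0.16), with a limma adjusted p of 0.960 over all genes. Of the 10 members, all had a lower mean in Fgfr1 iΔEC/iΔEC, from Scgb1a1 (log2 difference -1.29) and Sftpc (-1.20) to Hopx (-0.14). None was called, beside 0.0% of the 14944 genes tested, where adjusted p reached down to 0.732 and unadjusted p was under 0.05 for 663 genes (4.44%). With the replicate number as a block adjusted p reached down to 0.301, no gene was called, and unadjusted p was under 0.05 for 1150 genes (7.70%).

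Sftpc FPKM was 471, 822 and 1043 in Fgfr1 loxP/loxP and 206, 572 and 282 in Fgfr1 iΔEC/iΔEC. The groups overlapped, as Fgfr1 iΔEC/iΔEC 2 exceeded Fgfr1 loxP/loxP 1, but each library was below the one of its own number, by 1.44- to 3.70-fold. Sftpb was 85.4, 134 and 183 FPKM against 39.5, 109 and 69.9 FPKM (log2 difference -0.92, SE 0.42). Sftpa1 was 143, 218 and 313 FPKM against 69.9, 156 and 116 FPKM (-0.98, SE 0.38). Sftpd was 72.6, 106 and 121 FPKM against 31.6, 94.7 and 56.5 FPKM (-0.81, SE 0.40). All 4 surfactant proteins were thus lower in each of the 3 pairs, and for each of them pair 2 had the smallest ratio.

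Of the airway genes Scgb1a1 had the wider spread. It was 177, 413 and 1310 FPKM in Fgfr1 loxP/loxP and 86.4, 218 and 343 FPKM in Fgfr1 iΔEC/iΔEC, lower by 1.89- to 3.82-fold in each pair. Its log2 difference of -1.29 (SE 0.80) went to -0.53 without Fgfr1 loxP/loxP 3, the library with the highest value. Scgb3a1 was 10.5, 16.2 and 9.76 FPKM against 7.52, 7.29 and 7.91 FPKM, with no overlap (-0.59, SE 0.18).

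Ager and Cldn18 were also separated. Ager was 26.3, 51.7 and 35.2 FPKM in Fgfr1 loxP/loxP and 16.9, 24.0 and 18.2 FPKM in Fgfr1 iΔEC/iΔEC (-0.87, SE 0.26), and Cldn18 was 4.58, 7.05 and 5.59 against 2.77, 4.17 and 3.19 FPKM (-0.62, SE 0.18). The fold of Cldn18 was nearly the same in each pair, at 1.65 to 1.75. Epcam was 2.31, 3.22 and 2.51 FPKM against 0.536, 3.06 and 1.75 FPKM (-0.51, SE 0.34), down to 18 reads in the lowest library. Hopx was 60.4, 70.3 and 63.8 FPKM against 71.0, 47.8 and 59.9 FPKM (-0.14, SE 0.17), and was the one member higher in pair 1. Thus 3 members were separated (lower), beside 4.07% of all genes lower and 6.1% higher, and 9 were lower in every pair, beside 12.8% of all genes lower and 18.0% higher in every pair. These values chose the members and support nothing further.

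**Figure D5:**
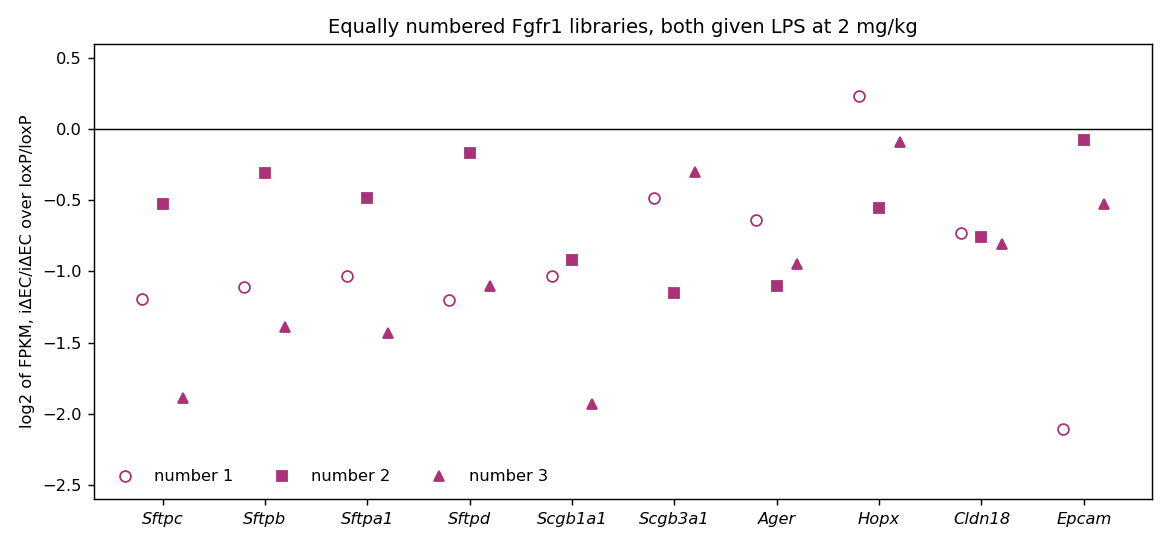
Log2 ratio of FPKM in Fgfr1 iΔEC/iΔEC over Fgfr1 loxP/loxP between libraries of equal number, 3 points per transcript. The points lie under 0 apart from Hopx in the pair numbered 1, and the 3 points of Cldn18 lie nearly together.

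In this comparison too 56 epithelial genes outside the members passed the filter, 52 of them the ones tested for LPS against saline, and none was called. Their median log2 difference was -0.32 beside 0.01 for all genes, 51 (91.1%) were negative beside 46.6%, 32 (57.1%) were lower in every pair beside 12.8%, and 10 (17.9%) had an unadjusted p under 0.05 beside 4.44%, or 20 (35.7%) beside 7.70% with the replicate block. The type 2 list had a median of -0.68, with 11 of 15 lower in every pair. Its largest differences were Lyz1, a lysozyme, with 27.8 ± 13.3 against 10.7 ± 3.84 FPKM (SD, n = 3 each, log2 difference -1.25, SE 0.42) and Cxcl15, a lung chemokine (-1.05, SE 0.51). Club and goblet genes had a median of -1.10, with Cyp2f2 at -1.38 and Cbr2 at 111 ± 36.8 against 47.1 ± 12.2 FPKM (-1.19, SE 0.28). The type 1 list was nearer to 0 (median -0.31), with Aqp5, a water channel, at -0.67 and Krt7 at -0.43, but Clic5, its most abundant gene, at 0.39 and higher in every pair. The summed type 1 list was 148, 128 and 157 FPKM in Fgfr1 loxP/loxP and 159, 132 and 180 FPKM in Fgfr1 iΔEC/iΔEC, so it was higher in each pair. That direction rested on Clic5, which made up between 39.55% and 75.1% of the sum. Without it, a sum taken after the values were seen, the list was 59.8, 77.2 and 50.2 FPKM against 39.4, 61.2 and 52.2 FPKM, lower in pairs 1 and 2 and slightly higher in pair 3. The ciliated list was also nearer to 0 (-0.15), with Sec14l3 at -0.63. General epithelial genes had a median of -0.31, and all 15 were negative. Cldn3 (-0.77) and Nkx2-1 (-0.77) were the largest, and 12 of 15 were lower in every pair. Adjusted p of every gene in this paragraph was 0.960 by limma.

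Of the other cell types, the leukocyte lists had negative medians and the endothelial list a positive one, with no gene called. All 8 neutrophil genes were negative (median -0.48) and 5 of 8 (62.5%) were lower in every pair, beside 12.8% of all genes, and the list summed to 1178, 2566 and 2615 FPKM in Fgfr1 loxP/loxP and to 756, 2455 and 1550 FPKM in Fgfr1 iΔEC/iΔEC, lower in each pair, with S100a9 the most abundant. All 6 general leukocyte genes (median -0.24) and all 6 lymphocyte genes (-0.38) were negative, as were 7 of 8 macrophage genes (-0.13), of which 1, 2 and 2 were lower in every pair. The endothelial list summed to 3346, 2620 and 3122 FPKM in Fgfr1 loxP/loxP and to 4403, 2928 and 4045 FPKM in Fgfr1 iΔEC/iΔEC, higher in each pair, with a median log2 difference of 0.27, 5 of 10 genes higher in every pair and Cldn5 the most abundant. Scaled on them, the median of all genes moved to -0.19, Sftpc went to -1.46 and Hopx to -0.39. Scaled on the general epithelial list, the median of all genes moved to 0.35, Sftpc stood at -0.78 and Hopx at 0.28, on the other side of 0. The part of different shares of endothelial cells and leukocytes in the lower epithelial values was not tested.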

How the data were processed

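Total RNA of bead-sorted pulmonary ECs was sequenced by the authors, aligned to GRCm38/mm10 with HISAT2 (2.0.5) and counted per gene with featureCounts (1.5.0-p3). The values deposited are FPKM in 2 tables, 1 per experiment, each normalized on its own. The annotation release, strandedness and treatment of multimapping reads are not given in the sources used here. With the gene length of the tables, 100.0% of FPKM values came out as whole reads (tolerance 0.05), which gave the depth of each library (saline 13478726 to 18807007, LPS 17840221 to 19043015, Fgfr1 loxP/loxP 15969575 to 17002788, Fgfr1 iΔEC/iΔEC 16642177 to 16943522 reads on genes). No pair of libraries of a group differed by less than sampling noise.

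Genes that averaged 0.5 FPKM or more were tested within each table with limma (3.58.1, R 4.3.3, trended variance) on log2(FPKM + 1), where the pseudocount of 1 understates changes of low genes. A call needed a Benjamini-Hochberg adjusted p of 0.05 or less and a log2 fold change of 1 or more in either direction. The script was tested on simulated data for each comparison (14893 and 14944 genes) and called 100% of the genes changed by 1.5 or by 3 on the log2 scale. Every simulated gene was given the same spread between libraries, the median of the real genes, and only well expressed genes were changed. The 100% thus shows that the script runs correctly. It does not tell how often a gene with a wider spread, or a low gene, would be called in the real libraries. Groups followed the sample labels. Libraries are the replicates, and where they are not separate animals the p-values measure a spread that may be technical. The labels number the Fgfr1 libraries alike, and the deviations of equally numbered libraries from their group means correlated at 0.25, 0.18 and 0.19, so the numbers were taken as pairs from the data.

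Members and gene lists (type 2, type 1, club and goblet, ciliated, basal, general epithelial, injury state, mesothelial, endothelial, leukocyte, neutrophil, macrophage, lymphocyte, fibroblast and mural) were chosen with earlier results of these data known. Named genes were the 2 largest calls in each direction and the 2 most abundant of each list, the 2 largest Fgfr1 differences of each epithelial list with a mean of at least 1 FPKM, and the 5 genes most like Sftpc, Ager and Scgb1a1. One gene that this rule names is not reported here. S100g, Rtkn2, Scgb3a2, Slc34a2, Lamp3, Abca3, Pdpn, Cdh1, Cdh5, Pecam1, Areg, Krt17, Trp63, Muc5ac and Muc5b were named after their values were seen. Alternatives were another pseudocount, other filters, scalings and normalizations, limma-voom on the recovered reads, no limit on fold change, a replicate block and leaving out each library. Promoters are from RefSeq (GRCm38.p6). Positions are those of the deposited tables, 98.33% of which equal GENCODE M21 for the 54409 identifiers found there.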

Additional observations from a re-analysis of the deposited data

Results flagged for a closer look

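Of 40 group values examined (members, ratios between them and summed epithelial lists, each in the saline and in the LPS group), 2 held a library that stood far from the rest by Dixon's criterion, and chance alone gives about 1 in 20, or 2.0. Scgb3a1 stood at 26.5 FPKM in LPS 2, while the other 5 LPS libraries were between 6.00 and 11.7 FPKM. The same library had the highest Scgb1a1 of the LPS group, at 133 FPKM. The summed basal list stood at 7.36 FPKM in LPS 1, while the other 5 LPS libraries were between 0.190 and 2.56 FPKM. In that library Krt5 was at 2.37, Krt14 at 1.64 and Krt15 at 2.18 FPKM, keratins of basal epithelium that were at or near 0 in most other libraries. Other basal genes did not follow. Krt17, also a basal keratin, was at 0 in every LPS library, and the basal transcription factor Trp63 reached at most 0.0842 FPKM in LPS. The source of the 3 keratins was not tested. LPS 1 was also the lowest LPS library for 9 of the 10 members.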

How the results depend on the processing

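In LPS against saline (1768 genes higher, 1011 lower), the number of genes higher was 4341 with scaling on endothelial genes, 4399 without a limit on fold change and 3438 with a replicate block and no such limit. Genes lower numbered 1840 with a pseudocount of 0.1, 206 with endothelial scaling, 1963 by limma-voom, 3529 without the limit and 2561 with the block and no limit. The split was 1373 higher and 1440 lower with scaling on total reads, which moved the median of all genes to -0.14. Epithelial genes outside the members called lower (10) were 18 with a pseudocount of 0.1, 16 with total reads, 16 with quantile normalization, 1 with endothelial scaling, 19 by limma-voom and 23 without the limit, and between 4 (without saline 1) and 16 (without saline 4) with 1 library left out. For the members, chosen on this contrast, the counts are a description only. Those called higher (1) were 0 with quantile normalization and with the replicate block, with or without the limit, and 2 with endothelial scaling. Those called lower (3) were 5 with total reads, 7 with quantile normalization, 1 with endothelial scaling, 1 with the block, 1 with the block and no limit, and between 1 (without saline 1 or LPS 1) and 4 with 1 library left out. The mean log2 fold change of the members (-0.59) was 0.079 with endothelial scaling and between -0.81 and -0.35 with 1 library left out. Equally numbered saline and LPS libraries correlated at 0.10, -0.16, -0.21 and -0.12 and so share only a number, and the block gave 1925 genes higher and 1063 lower. In Fgfr1 iΔEC/iΔEC against Fgfr1 loxP/loxP no gene was called under any alternative, the replicate block included, and the mean of the members was between -1.03 and -0.55 with 1 library left out. No called value changed sign under the alternatives run, and the cause of the other shifts was not tested. FPKM of Epcam and of genes under 1 FPKM rest on few reads.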

Other observations

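Other cell types of the lung gave smaller and mixed values in LPS against saline. Of 6 genes on the mesothelial list 1 had enough reads, Upk1b, a uroplakin. It fell from 5.55 ± 2.09 FPKM (SD, n = 4) to 0.844 ± 0.388 FPKM (n = 6), a log2 difference of -1.78 (limma adjusted p = 0.000166). The other genes of that list averaged under 0.5 FPKM and moved in both directions, and Wt1, a mesothelial transcription factor, was listed at 0 in every saline library. Upk1b alone thus does not describe mesothelial cells, and the cells it came from were not tested. Of 7 mural genes 2 fell, the pericyte genes Notch3 (-1.18) and Pdgfrb (-1.02), and Acta2, the most abundant, stood at 0.81 and was not called. None of 6 fibroblast genes was called, with Col3a1, the most abundant, at -0.80. The unadjusted limma p of 4 of them (66.7%) was under 0.05, near the 59.6% of all genes tested. Of 5 lymphocyte genes 3 fell, among them Cd79a (-1.57, the most abundant), which encodes a part of the B cell receptor. In the Fgfr1 comparison Upk1b and Wt1 were too low to test, and none of the other genes named here was called.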
